A study of Mus musculus with 6 samples.

Results

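The 10 genes described here encode EGF-family ligands and their ErbB receptors. They were chosen by name as 7 ligand genes (Egf, Tgfa, Hbegf, Areg, Ereg, Btc and Epgn) and 3 receptor genes (Egfr, Erbb2 and Erbb3), out of 22910 genes that the array could name, and 14 probes measured them. The samples were 2D-MAOs, mouse airway epithelial organoids of the C57BL/6 strain that had been dissociated and plated as a flat sheet. In the TGF-β1 group (3 cultures), the secreted growth factor TGF-β1 was given from day 3. In the control group (3 cultures) it was left out. The medium of both groups lacked noggin, which binds BMPs, and A83-01, which inhibits the type I TGF-β receptor kinase. Cells were collected on day 7, and RNA of each culture was hybridised to 1 array. The microarray methods give no TGF-β1 concentration, and the number of animals or organoid lines behind the cultures is not given in the sources used here, although the labels call the 3 cultures of each group biological replicates. The p-values therefore measure the spread between these cultures, which may be partly technical.

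EGF-family ligands are made as membrane-anchored precursors that proteases of the ADAM family cut loose, after which they bind EGFR on the same or neighbouring cells. ErbB2 has no known ligand and acts as the partner of the other receptors, and ErbB3 binds neuregulins and signals through its partner because its own kinase is weak. In airway epithelium the system is known for repair after injury and for mucous differentiation.

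Signals are given as log2 of the background-subtracted brightness after quantile normalisation. Because probes differ in how brightly they report a transcript, signals were set against each other between arrays only. The 14345 genes tested had a probe detected well above background by 3 or more arrays, and the change of a gene is the log2 fold change, TGF-β1 minus control, from limma. A gene counted as changed at a Benjamini-Hochberg adjusted p under 0.05 over all genes tested. In the distance over all genes tested, the third TGF-β1 array (TGF-β1 replicate 3) stood apart: it lay 61.1 and 62.3 from the other TGF-β1 arrays, which were 32.3 apart, and 54.4 to 60.9 from the controls. Where leaving it out changed the call of a member or pathway gene named here, the value without it is also given. No such value is given for the cell type markers or for the genes most like Areg. The airway epithelium markers (Epcam, Cdh1, Krt8, Krt18, Krt19, Nkx2-1, Sox2 and Cldn4) were well above background on all 6 arrays. The goblet cell markers Muc5ac and Muc5b did not reach 3 arrays. The type 1 alveolar cell markers (Cav1, Ager, Hopx, Pdpn and Aqp5) were well above background on all 6 arrays, as were the listed basal and ciliated cell markers. Other lists were mixed. Of the type 2 alveolar cell markers, Sftpc and Sftpb did not reach 3 arrays and Lamp3 and Abca3 were well above background on all 6. Of the endothelial markers, Cdh5, Kdr and Tek did not reach 3 arrays, Vwf reached 3 and Pecam1 all 6. Among the leukocyte markers, Ptprc, Adgre1 and Lyz2 did not reach 3 arrays and Cd68 and Cd3e reached all 6.

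Epgn, Ereg, Areg and Btc follow each other on chromosome 5 with no other protein-coding gene between them. The 250 bases before the gene start are shown for the 3 of them that a RefSeq promoter table of GRCm38.p6 holds, since Areg was the member with the largest fitted change, Btc was measured without a called change and Epgn was nowhere well above background on the arrays. The Areg window is chr5:91139349-91139598 on the plus strand, the Btc window chr5:91402995-91403244 on the minus strand and the Epgn window chr5:91027267-91027516 on the plus strand. All are written 5′ to 3′ and end at the base before the gene start, and capitals mark motif matches.
Areg: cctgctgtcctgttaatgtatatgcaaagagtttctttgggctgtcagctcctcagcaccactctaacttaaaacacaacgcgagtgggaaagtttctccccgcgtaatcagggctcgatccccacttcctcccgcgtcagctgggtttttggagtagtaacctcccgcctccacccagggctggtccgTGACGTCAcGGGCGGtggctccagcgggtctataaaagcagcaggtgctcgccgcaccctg
Btc: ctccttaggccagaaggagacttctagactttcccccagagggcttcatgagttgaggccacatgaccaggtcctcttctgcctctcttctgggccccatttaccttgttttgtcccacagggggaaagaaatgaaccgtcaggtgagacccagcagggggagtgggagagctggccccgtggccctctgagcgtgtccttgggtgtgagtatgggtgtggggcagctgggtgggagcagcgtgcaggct
Epgn: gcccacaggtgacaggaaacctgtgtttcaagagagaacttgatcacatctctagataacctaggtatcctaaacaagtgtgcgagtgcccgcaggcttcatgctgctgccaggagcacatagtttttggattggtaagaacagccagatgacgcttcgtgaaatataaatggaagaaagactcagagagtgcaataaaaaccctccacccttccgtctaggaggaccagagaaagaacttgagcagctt
The motifs searched, on both strands, were the CRE (TGACGTCA), AP-1 (TGANTCA), the SMAD palindrome (GTCTAGAC), the CAGA box (AGCCAGACA) and the GC box (GGGCGG). The Areg window held the CRE, which is a binding motif of the CREB family, at 61 bases before the start and the GC box at 52. The Btc and Epgn windows held no match. Of 32851 such windows in the table, 1.55% held a CRE, 6.75% AP-1, 0.167% the SMAD palindrome, 0.301% the CAGA box and 32.7% the GC box. The table held 7 of the 10 members, and the CRE was found in none of the others.

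Of the 10 members, 9 were tested, and none changed by the limma adjusted p (0 of 9, against 2.04% of all genes tested in either direction). With a 2-fold change asked as well, 0 members stood beside 1.19% of all genes called higher and 0.188% called lower. At an unadjusted limma p under 0.05, 2 members were higher, Areg and Hbegf, and 0 were lower, against 11.4% and 10.7% of all genes tested (22.2% in either direction). The fitted change was above 0 in 6 and below 0 in 3, with a median of 0.17 beside -0.03 over all genes tested. Without the third TGF-β1 array, Areg and Hbegf had a limma adjusted p under 0.05, 2 of 9 members higher and 0 lower where 9.08% and 6.27% of all genes were.

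**Figure D1:**
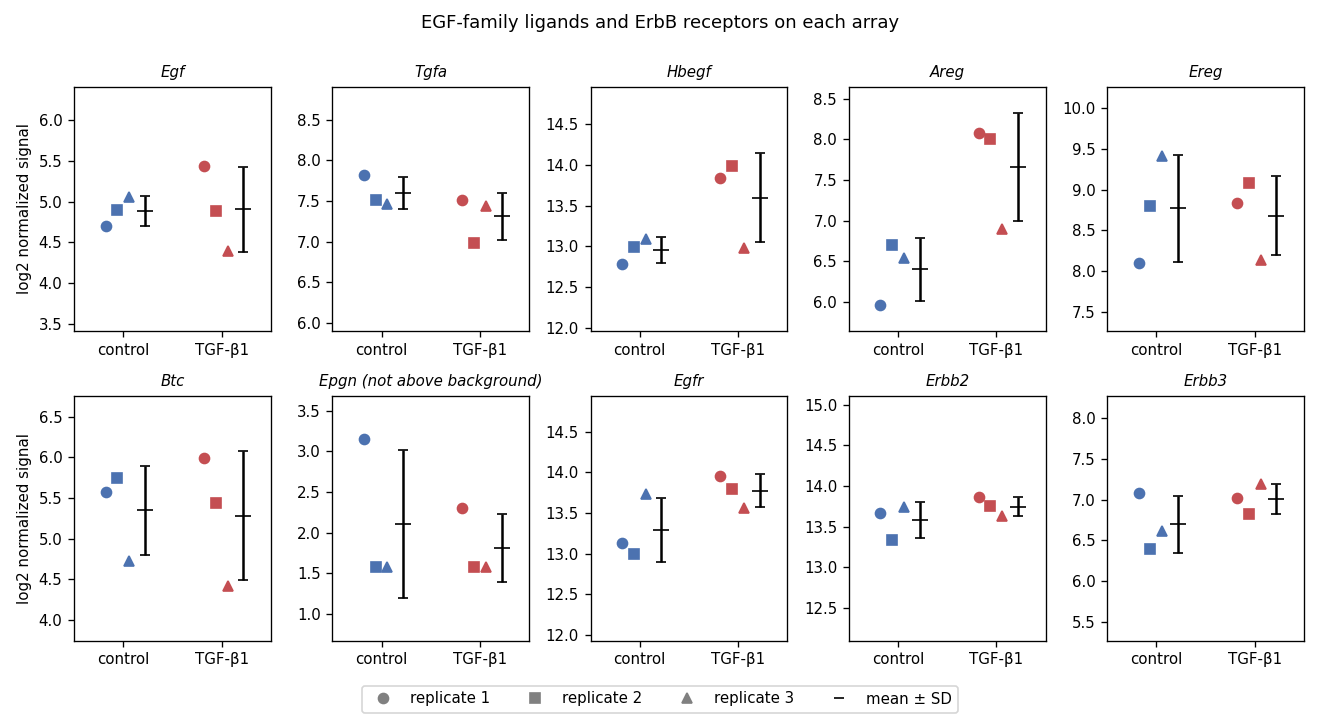
Normalised log2 signal of each member on each array (y axis, a range of at least 3 log2 units in every panel), controls in blue and TGF-β1 in red, with symbols for replicates and the mean ± SD (n = 3). In Areg all TGF-β1 arrays lie above all controls, and in Hbegf the third TGF-β1 array lies among the controls.

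Among the ligands, Areg, the gene of amphiregulin, had the largest fitted change of the members. Its log2 signal was 5.97, 6.70 and 6.55 on control replicates 1, 2 and 3, and 8.08, 8.00 and 6.89 on TGF-β1 replicates 1, 2 and 3. All 3 TGF-β1 arrays were higher than all 3 controls, the third by the smallest margin. The groups of 12.9% of all genes tested were separated in this direction and of 13.5% in the other, and Areg was the only member so separated in either. The mean was 6.40 ± 0.39 in controls and 7.66 ± 0.66 after TGF-β1 (SD, n = 3 each), a fitted log2 change of 1.26 or 2.39-fold (SE 0.35, adjusted p in limma = 0.127, 95% confidence interval 1.34-fold to 4.26-fold), which did not pass the test. The exact permutation test gave p = 0.1, and a comparison of 3 with 3 arrays cannot give a lower one. Without the third TGF-β1 array the log2 change was 1.64 or 3.11-fold (adjusted p in limma = 0.0124), and without any other single array it was 1.04 to 1.40 with an adjusted p of 0.144 to 0.367. The Areg spots were dim, with a ratio to the local background between 2.81 and 4.09 on control arrays and between 4.69 and 10.7 on TGF-β1 arrays, and with normexp background the log2 change was 0.90.

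Hbegf, the gene of heparin-binding EGF-like growth factor, had a log2 signal of 12.78, 12.99 and 13.09 in the controls and 13.83, 13.98 and 12.98 on TGF-β1 replicates 1, 2 and 3. TGF-β1 replicates 1 and 2 were above every control, whereas the third TGF-β1 array lay within the control range, so the groups overlapped. The log2 change was 0.65 or 1.56-fold (SE 0.27, adjusted p in limma = 0.219). Without the third TGF-β1 array it was 0.96 or 1.94-fold (SE 0.13, adjusted p in limma = 0.013), and without any other single array it ranged from 0.45 to 0.71. The spots were bright, with a ratio to the local background between 210 and 428. Across the 6 arrays Hbegf followed Areg more closely than any other pair of members did (Pearson r = 0.959), a description over 6 arrays that share the group difference and the third TGF-β1 array.

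Tgfa, which encodes another EGFR ligand, was the member with the lowest fitted change. Its log2 signal was 7.82, 7.51 and 7.47 in controls and 7.51, 6.98 and 7.44 after TGF-β1. Only TGF-β1 replicate 2 was clearly below the controls, and the log2 change was -0.29 (SE 0.18, adjusted p in limma = 0.362, 95% confidence interval 0.61-fold to 1.1-fold). Its fitted change stayed below 0 with each array left out, between -0.39 and -0.12, the latter without TGF-β1 replicate 2.

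Ereg, the gene of epiregulin and a neighbour of Areg, did not separate the groups. Its signal was 8.10, 8.80 and 9.41 in controls and 8.83, 9.08 and 8.14 after TGF-β1. The control arrays alone spanned the whole range of the TGF-β1 arrays, and the log2 change was -0.09 (SE 0.37, adjusted p in limma = 0.902). The confidence interval, 0.508-fold to 1.74-fold, includes changes of the size fitted for Hbegf.

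Btc, the gene of betacellulin, was seen by 2 probes, of which 1 was detected on none of the arrays. On the other probe the signal was 5.57, 5.75 and 4.73 in controls and 5.99, 5.44 and 4.42 after TGF-β1. In both groups replicate 3 was the lowest array. The log2 change was -0.07 (SE 0.44, adjusted p in limma = 0.939), with a confidence interval of 0.466-fold to 1.96-fold. Egf itself was low but well above background on all arrays, with 4.70, 4.90 and 5.06 in controls and 5.44, 4.88 and 4.39 after TGF-β1. The TGF-β1 arrays fell on both sides of the controls, and the log2 change was 0.02 (SE 0.26, adjusted p in limma = 0.971). Leaving out the third TGF-β1 array gave Ereg a change of 0.18, Btc 0.36 and Egf 0.28, and none of them passed. Epgn, the gene of epigen, was not well above background on any of the 6 arrays, with a spot-to-background ratio between 1.08 and 1.44, and no change is given for it.

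The 3 receptors all had a fitted change above 0, and none passed the test. Egfr, the receptor of all these ligands, had a log2 signal of 13.13, 13.00 and 13.73 in controls and 13.96, 13.80 and 13.56 after TGF-β1. Control replicate 3 lay above the third TGF-β1 array and the groups overlapped. The log2 change was 0.49 or 1.4-fold (SE 0.22, adjusted p in limma = 0.245, 95% confidence interval 0.98-fold to 2-fold). The other 2 probes of Egfr, 1 of them designed on a different transcript, differed by 0.45 and 0.45 on the log2 scale. Without the third TGF-β1 array it was 0.59 (adjusted p in limma = 0.132), and under scaling to the 75th percentile 0.29 (0.343), neither of which passed. Within the 4 arrays of slide row 1, which left out replicate 3 of each group, it was 0.82 (adjusted p in limma = 0.0167, in a fit that called 13.8% of all genes higher), and between the 2 arrays of slide row 2 it was -0.18.

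Erbb2, the ligandless partner receptor, had 13.67, 13.33 and 13.74 in controls and 13.86, 13.75 and 13.63 after TGF-β1. These values overlapped, with a fitted log2 change of 0.17 (SE 0.14, adjusted p in limma = 0.506) and a difference of 0.07 on its second probe, and under scaling to the 75th percentile the sign turned (-0.03). Erbb3, the neuregulin receptor, had 7.08, 6.39 and 6.61 in controls and 7.02, 6.82 and 7.19 after TGF-β1. Control replicate 1 lay among the TGF-β1 arrays, and the log2 change was 0.31 (SE 0.20, adjusted p in limma = 0.372). It was 0.51 without control replicate 1 and 0.16 without control replicate 2. For Erbb2 the lowest value with an array left out was 0.042, without control replicate 2.

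**Figure D2:**
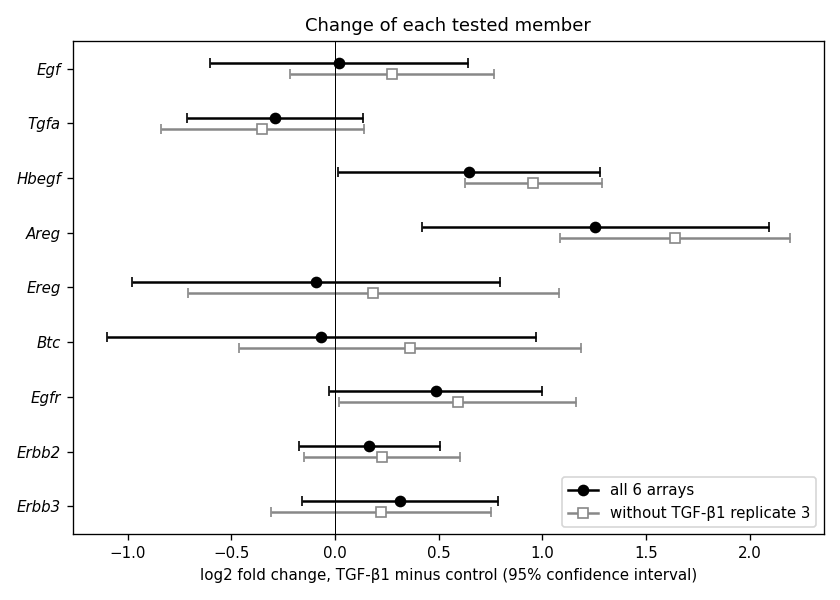
Log2 fold change of the 9 tested members (x axis) with 95% confidence intervals from limma, from all 6 arrays (filled) and without the third TGF-β1 array (open). With all arrays the intervals of Areg and Hbegf exclude 0 before adjustment for the number of genes, and without that array Areg moves from 1.26 to 1.64 and Hbegf from 0.65 to 0.96.

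The third TGF-β1 array lay within the control range for Hbegf, Ereg, Egfr and Erbb2, 4 of 9 members (44.4%, beside 49.3% of all genes tested). The mean signal of the basal cell, ciliated cell and fibroblast lists was higher on every TGF-β1 array than on any control. In each of these lists some genes overlapped between the groups. The basal cell list (Krt5, Krt14, Trp63 and Ngfr) had a mean log2 signal of 12.05 to 12.66 on control and 12.73 to 13.94 on TGF-β1 arrays, with 0 of 4 genes changed by the limma adjusted p. Krt14 was at 16.38 and 16.30 on TGF-β1 replicates 1 and 2 and at 15.25 on replicate 3, against 13.94, 14.55 and 14.79 in controls. The ciliated cell list (4 of 4 tested) had a mean of 6.89 to 7.38 on control and 7.53 to 7.88 on TGF-β1 arrays. Foxj1 was the only gene of this list called, with a rise of 1.47 (adjusted p in limma = 0.00239). Tppp3 had 0.26 (0.298) with no overlap, and Ccdc39 with 0.30 (0.294) and Dnah5 with 0.34 (0.596) overlapped. In the secretory list, 3 of 5 tested, the genes did not move together. The club cell marker Scgb1a1 had -2.27 (adjusted p in limma = 0.158) with no overlap. Scgb3a2 was higher after TGF-β1, also with no overlap (adjusted p in limma = 0.117). Its signal was 8.64 to 9.46 on control and 9.66 to 10.55 on TGF-β1 arrays. Scgb3a1 had -0.97 (0.53) and overlapped. Among the leukocyte markers, Cd68 had 0.90 (0.147) with no overlap, and Cd3e had -0.24 (0.395) and overlapped. In the fibroblast list 4 of 7 genes were tested, and their mean signal was 5.19 to 5.54 on control and 6.39 to 7.14 on TGF-β1 arrays. Col1a1 and Col1a2 were well above background on 0 control and 3 TGF-β1 arrays. They passed the filter only through the group where they were high, which limits what their test shows (adjusted p in limma = 0.0131 and 0.0162). The list mean was drawn partly from them. Dcn had 1.00 (0.273) with no overlap, and Pdgfra had 0.21 (0.484) and overlapped. Col3a1, Pdgfrb and Lum did not reach 3 arrays. The part of these cells in the values of the members was not tested, and fewer cells of a type cannot be told apart from less RNA per cell.

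The other ligands and the fourth receptor of the family were examined as a list of 5 genes. Nrg1, the gene of neuregulin 1, a ligand of ErbB3 and ErbB4, had 13.72, 13.65 and 14.35 in controls and 14.42, 14.48 and 14.50 after TGF-β1. The groups did not overlap, control replicate 3 was close to the TGF-β1 arrays, and the log2 change was 0.56 (SE 0.19, adjusted p in limma = 0.173). Under scaling to the 75th percentile it was 0.33, and without control replicate 3 it was 0.78 (adjusted p in limma = 0.0361). Nrg2 was tested and did not pass (adjusted p in limma = 0.611), and Nrg3, Nrg4 and Erbb4 did not reach 3 arrays.

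All 12 genes of ligand shedding and trafficking were tested, and 0 changed by the limma adjusted p, with a median change of 0.27 beside -0.03 over all genes tested. The fitted change was above 0 in all 12, where 45.8% of all genes were, but this depended on the scaling: with the 75th percentile it was above 0 in 9 and below 0 in 3, with a median of 0.048 beside -0.094 over all genes. Without control replicate 2 it was above 0 in 10 and below 0 in 2. Adam12, a protease able to cut Hbegf, had 4.77, 5.20 and 4.93 in controls and 6.95, 7.07 and 5.18 after TGF-β1. The third TGF-β1 array was at the control level, as it was for Hbegf, and the log2 change was 1.43 (SE 0.49, adjusted p in limma = 0.169), or 2.05 without that array (0.00329). With normexp background it was 0.72. Adam10, one of the main sheddases of the family, had a fitted log2 change of 0.45 (adjusted p in limma = 0.263), which was 0.25 under scaling to the 75th percentile, 0.29 with the mean of its probes and 0.65 without the third TGF-β1 array (0.0444). Nkd2, which carries Tgfa to the basolateral membrane, had 0.43 (0.193). Adam17, the main sheddase of Areg, Hbegf and Tgfa, differed by 0.11 (adjusted p in limma = 0.745), and by -0.029 under scaling to the 75th percentile. Without the third TGF-β1 array, 3 genes of the list were called higher, Adam12, Adam10 and Adam15, in a fit that called 9.08% of all genes higher. Adam15, named after its value was seen, had 0.63 in that fit (adjusted p in limma = 0.0261). With all arrays it had 0.42 (0.263), and 0.19 under scaling to the 75th percentile.

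Of 25 adaptors and kinases downstream of the receptors, 0 changed by the limma adjusted p, and at an unadjusted p 0 were higher and 4 lower (11.4% and 10.7% of all genes tested), with a median of -0.11. The fitted change was above 0 in 7 of them and below 0 in 18. Under scaling to the 75th percentile it was above 0 in 3 and below 0 in 22, with a median of -0.20 beside -0.094 over all genes. With the third TGF-β1 array left out, 2 were called lower, Pik3r1 and Hras, where 6.27% of all genes were. Pik3r1, the regulatory subunit of PI3 kinase, had a fitted log2 change of -0.74 (SE 0.18, adjusted p in limma = 0.092), from 10.34, 10.13 and 10.06 in controls to 9.24, 9.27 and 9.78 after TGF-β1. These groups did not overlap, and without the third TGF-β1 array the change was -0.92 (adjusted p in limma = 0.0118). Hras, a small GTPase of the ERK cascade, had -0.49 (adjusted p in limma = 0.131), or -0.60 without that array (0.0329), and Mapk3, the gene of ERK1, had -0.46 (0.187).

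Of the inhibitors and feedback genes of the pathway, 19 of 20 were tested, and 2 changed, both higher (1.63% of all genes tested were called higher and 0.404% lower). Lrig3, whose protein is a relative of the ErbB inhibitor LRIG1, had 12.54, 12.57 and 12.82 in controls and 13.71, 13.67 and 13.33 after TGF-β1. All TGF-β1 arrays were higher, and the log2 change was 0.93 or 1.9-fold (SE 0.15, adjusted p in limma = 0.0336). Dusp6, a phosphatase that ERK signalling induces and that dephosphorylates ERK, had 9.93, 10.17 and 10.10 in controls and 10.97, 10.86 and 10.61 after TGF-β1, a fitted log2 change of 0.74 or 1.67-fold (SE 0.13, adjusted p in limma = 0.0484). Both calls were lost without control replicate 1 or 2 and without the first or second TGF-β1 array, where the limma adjusted p was 0.133 to 0.156 for Lrig3 and 0.128 to 0.198 for Dusp6, and Dusp6 also lost it without control replicate 3 (0.0799). With the replicate number as a block both were lost (0.108 and 0.111). Dusp6 lost it too with the slide row as a block (0.0501) and under scaling to the 75th percentile (0.0533). Sh3kbp1, which helps to internalise EGFR, had -0.79 (SE 0.16, adjusted p in limma = 0.0627), or -0.91 without the third TGF-β1 array (0.0155). Over the list the fitted change was above 0 in 10 genes and below 0 in 9, with a median of 0.04, and under scaling to the 75th percentile in 7 and 12, with a median of -0.082. When the third TGF-β1 array was left out, 3 genes were called higher and 3 lower, where 9.08% and 6.27% of all genes were.

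**Figure D3:**
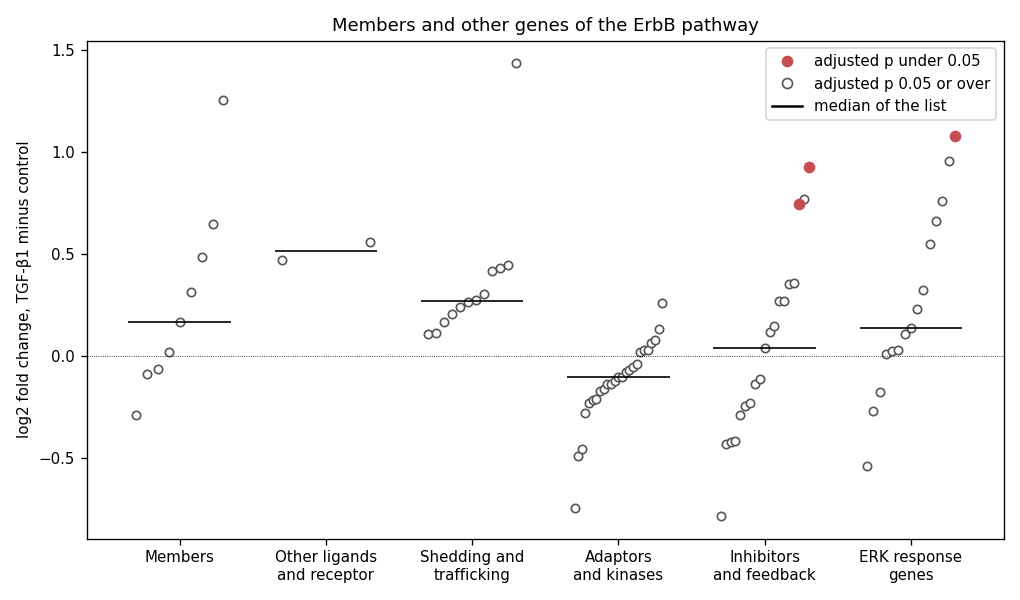
Log2 fold change of each tested member and of each tested gene of the 5 pathway lists (y axis), sorted within a list, with the list's median as a line and genes of limma adjusted p under 0.05 filled. The filled genes are Dusp6 and Lrig3 among the inhibitors and Etv4 among the ERK response genes.

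Of the genes that respond to ERK, 15 of 16 were tested and 1 changed, where 1.63% of all genes tested were called higher and 0.404% lower. This was Etv4, an ETS-family transcription factor. Its signal was 8.55, 8.66 and 8.36 in controls and 9.62, 9.54 and 9.65 after TGF-β1. The 3 TGF-β1 arrays lay close together, with replicate 3 the highest, and the log2 change was 1.08 or 2.11-fold (SE 0.12, adjusted p in limma = 0.0107). Without control replicate 1 the adjusted p was 0.0539, and without the first or second TGF-β1 array it was 0.0579 or 0.0556. Etv5, a close relative, had a fitted log2 change of 0.95 (SE 0.18, adjusted p in limma = 0.0544), from 7.57, 7.82 and 7.31 to 8.69, 8.25 and 8.62, and it passed under scaling to the 75th percentile (0.0326) and without the third TGF-β1 array (0.0377). Egr1, an immediate early gene, had 10.66, 10.62 and 10.34 in controls and 11.65, 11.62 and 10.63 after TGF-β1, a fitted log2 change of 0.76 (adjusted p in limma = 0.191), or 1.09 without the third TGF-β1 array (0.0092). Here the third TGF-β1 array was at the control level, as in Hbegf and Adam12. Junb, an AP-1 subunit chosen after its value was seen, had 0.55 (adjusted p in limma = 0.0635), but 0.28 under scaling to the 75th percentile (0.261) and 0.31 with the mean of its probes (0.235), and it passed without the third TGF-β1 array (0.52, adjusted p in limma = 0.0394). The fitted change was above 0 in 12 genes of the list and below 0 in 3, where 45.8% of all genes tested were above 0. Scaling to the 75th percentile gave 9 above and 6 below, and leaving out control replicate 3 gave 8 above and 7 below. In the fit that left out the third TGF-β1 array, 5 genes were called higher and 0 lower, where 9.08% and 6.27% of all genes were.

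**Figure D4:**
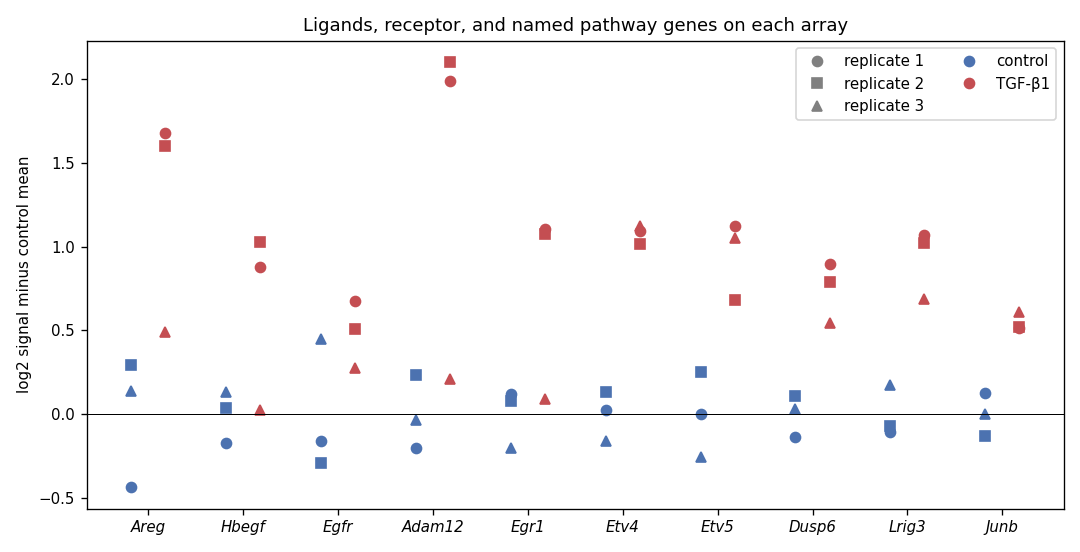
Log2 signal of each array minus the control mean (y axis) for 3 members and 7 pathway genes, controls in blue, TGF-β1 in red, symbols for replicates. The third TGF-β1 array lies beside the other TGF-β1 arrays in Etv4, Etv5 and Junb, and among or near the controls in Hbegf, Adam12, Egr1 and Areg.

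The profiles most like that of Areg, the member with the lowest limma p, were sought over the 6 arrays among 14344 genes. The highest Pearson r was that of Mycn (0.998), a MYC-family transcription factor, followed by Fbxw7 (0.997), Pros1 (0.995), Rcn1 (0.995) and Dennd2a (0.994). These values describe 6 arrays in 2 groups and carry no p. In all 5 genes, as in Areg, the third TGF-β1 array lay above the controls and below the other TGF-β1 arrays. Their choice by likeness to Areg over the same arrays favoured this order. Mycn, for example, was at 3.88, 4.94 and 4.94 in controls and at 7.51, 7.29 and 5.41 after TGF-β1, and was well above background on 2 of the 3 control arrays. Its log2 fold change was 2.15 (SE 0.59, adjusted p in limma = 0.121).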

How the data were processed

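RNA of 6 cultures of 2D-MAOs, 3 treated with TGF-β1 and 3 controls, was measured on a 1-colour Agilent mouse array. The authors deposited, per array, the spot intensity on a linear scale from Agilent Feature Extraction 11.0.1.1, background-subtracted but not normalised between arrays, and the median intensity of spot and local background. The paper normalised log2 signals by quantiles, and so was done here.

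Control spots and spots marked as uneven or as outliers (74 to 112 per array) were left out and spots of a probe averaged on the log2 scale. RefSeq accessions in a gene table of GRCm38.p6 named 32991 of 56599 probes (58.3%). The files name an older mouse build, so no array positions are given. A gene was its brightest probe among those well above background on at least 3 arrays. A limma fit (version 3.58.1, R 4.3.3) with the group as its only term covered 14345 genes, with two-sided p and Benjamini-Hochberg adjustment. The exact permutation test was two-sided. The number of arrays limits the precision. No spot was saturated (0 on each array), and the 6 arrays lay on 1 slide, replicate 3 of each group in slide row 2, with 1 scan time.

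The members and the lists were chosen with earlier results of these data known. The text names every member, the genes of each pathway list with an adjusted p under 0.05, filled up to 3 by the largest change among genes well above background on all 6 arrays, and the 5 genes most like the member with the lowest p. Adam17 and Nrg2 fall outside this rule and were chosen after their values were seen, as were those so marked in the text. Cell type markers come from the marker lists.

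Results were recomputed with 75th percentile scaling, with normexp background (offset 50, on the median spot brightness since the mean is not held), no filter, detection on all 6 arrays, the mean of probes, an unadjusted threshold, the methods' unpaired t-test, a trended robust prior, array weights, the replicate number or the slide row as a block, slide row 1 alone, and each array left out. The procedure was tested on simulated data.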

Additional observations from a re-analysis of the deposited data

How the results depend on the processing

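No member passed the adjusted threshold under 75th percentile scaling, normexp background, no filter, detection on all arrays, the mean of probes, the trended robust prior, the adjusted t-test, the replicate block (0 members) or the slide row block. Members called higher numbered 2 at the unadjusted limma threshold, 1 by the unadjusted t-test, 3 with array weights and 3 in slide row 1 alone (Areg, Hbegf and Egfr in both, where 16.8% and 13.8% of all genes were called higher), and 0 to 2 with each array left out, where the 2 came without TGF-β1 replicate 3. Array weights gave that array 0.297, the lowest. The number of members called lower was 0 under every alternative.

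Genes of the pathway lists called higher, 3 with all arrays, were 5 with normexp background, 1 without filter, 12 unadjusted, 9 by the unadjusted and 0 by the adjusted t-test, 5 with the trended robust prior, 20 with array weights, 0 with the replicate block, 17 in slide row 1 alone and 0 to 11 with each array left out. Those called lower, 0 with all arrays, were 1 with normexp background, 9 unadjusted, 9 by the unadjusted t-test, 12 with array weights, 11 in slide row 1 alone and 0 to 5 with each array left out. The highest of both ranges came without TGF-β1 replicate 3. The share of all genes moved too: 1.63% were called higher with all arrays, 2.42% with normexp background, 0.258% without filter and 11.4% unadjusted. It was 9.09% by the unadjusted and 0.0488% by the adjusted t-test, 2.78% with the trended robust prior and 16.8% with array weights. With the replicate block it was 0.593%, in slide row 1 alone 13.8% and without TGF-β1 replicate 3 9.08%. The share called lower was 0.404% with all arrays, 0.579% with normexp background, 10.7% unadjusted and 8.00% by the unadjusted t-test. It was 17.9% with array weights, 13.0% in slide row 1 alone and 6.27% without TGF-β1 replicate 3. With 75th percentile scaling Dusp6 was at an adjusted p of 0.0533.

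Fitted changes near 0 turned sign. Btc had 0.081 under 75th percentile scaling, 0.025 with normexp background, 0.15 with array weights, 0.051 in slide row 1 alone and -0.42 to 0.36 with each array left out. Egf had -0.026 with normexp background and -0.25 to 0.28 with each array left out. Erbb2 had -0.030 under 75th percentile scaling. Ereg had 0.40 with array weights, 0.50 in slide row 1 alone and -0.43 to 0.23 with each array left out. The causes were not tested. The correlation of same-numbered arrays' deviations from their group means was -0.0079, 0.333 and -0.047. With 3 arrays per group these values cannot decide whether the replicate numbers pair the arrays. With the replicate block the SE of Btc was 0.19, against 0.44 without it. With that block Lrig3, Dusp6 and Etv4 had limma adjusted p of 0.108, 0.111 and 0.0604. Egf, Btc and Areg spots, a few times as bright as their background, limit the size of change that can be read from them.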
